A study of Mus musculus with 196 samples.

Results

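Krt84 and Krt36 encode hard keratins, the cysteine-rich filament proteins of hair, nail and other hardened epithelia. Krt84 is a type II and Krt36 a type I keratin, and a keratin filament is built from pairs of both types. The 2 genes were chosen from 18820 measured genes because their level in tail skin is high and nearly constant, so their tail levels and their differences between tail and dorsal skin are given as descriptions, with no test. Each gene was read by 1 probe set (a group of array probes that name a single gene).

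Skin of untreated mice aged 8 weeks was profiled on mouse gene arrays, with 1 ug of total RNA per array. The 100 mice were backcross offspring: F1 mothers, born to FVB/N dams sired by Mus spretus, had been mated to FVB/N males, so each mouse carried its own mixture of both genomes. Tail skin gave 97 arrays (48 females, 49 males). Shaved dorsal skin gave 14 arrays labelled anagen, the phase in which hair grows (8 females, 6 males), and 85 labelled non-anagen (41 females, 44 males), and 96 mice had arrays of both tissues. Tail arrays carry no hair cycle label. All values are log2 expression from RMA as deposited, and all differences are log2 differences.

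The arrays carried the marks of their labelled tissue. The mean of 5 epidermal keratinocyte genes (Krt5, Krt14, Krt1, Krt10 and Lor) lay between 12.11 and 12.53 in tails, between 11.50 and 12.45 in anagen dorsal skin and between 11.65 and 12.44 in non-anagen dorsal skin. Of 8 posterior Hox genes, which mark position along the body, 5 were called higher in tail than in non-anagen dorsal skin at an adjusted p under 0.05 and a difference of at least 1 (3.94% of all genes were). Of the other 3, Hoxa13 differed by 0.87, Hoxc10 by 0.09 and Hoxd12 by -0.37. All 6 skeletal muscle genes were called lower in tail than in non-anagen skin (2.02% of all genes were) and than in anagen skin (1.69%), with a list mean of 5.02 to 8.86 in tails and 5.33 to 11.66 in non-anagen dorsal skin, and the part of muscle in the results was not tested. Array medians were 6.57 in tail, 6.38 in anagen dorsal skin and 6.37 in non-anagen dorsal skin on average. Tail arrays were run in batches 3 and 4 and dorsal arrays in batches 1 and 2, and these cannot be told apart from tissue. In whole skin, fewer cells of a type and less RNA per cell cannot be told apart either.

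In the mouse, Krt84 and Krt36 are known as a hair-related keratin pair of epithelia that harden while keeping their nuclei (parakeratosis), such as the filiform papillae of the tongue and the scales of the tail. Other hard keratins are made by the cells of the hair shaft in a growing follicle. The inner root sheath, a sleeve around the shaft that is built from its own keratins and trichohyalin, is made during hair growth, and its transcripts therefore mark growing follicles. The mean of 9 sheath genes (Krt25, Krt26, Krt27, Krt28, Krt71, Krt72, Krt73, Krt74 and Tchh) is called the sheath level here.

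Both genes lie among other keratin genes. In the RefSeq annotation of GRCm38.p6, Krt84 on chromosome 15 lies between Krt83 and Krt82, and Krt36 on chromosome 11 lies between Krt35 and Krt13, an epithelial keratin of soft lining tissues. Both promoter windows, from 250 bases before to 50 after the RefSeq start, were found and are shown because the 2 genes share one pattern across the arrays. The Krt84 window is chr15:101532771-101533070 and the Krt36 window chr11:100105577-100105876, both on the minus strand. Capitals mark matches to CCAAT, and to TTTATA, which is TATAAA on the opposite strand.
Krt84: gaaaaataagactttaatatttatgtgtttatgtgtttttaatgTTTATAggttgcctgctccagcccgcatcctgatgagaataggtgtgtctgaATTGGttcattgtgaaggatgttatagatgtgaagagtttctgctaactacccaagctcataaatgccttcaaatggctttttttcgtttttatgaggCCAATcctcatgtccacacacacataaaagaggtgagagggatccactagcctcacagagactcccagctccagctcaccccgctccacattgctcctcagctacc
Krt36: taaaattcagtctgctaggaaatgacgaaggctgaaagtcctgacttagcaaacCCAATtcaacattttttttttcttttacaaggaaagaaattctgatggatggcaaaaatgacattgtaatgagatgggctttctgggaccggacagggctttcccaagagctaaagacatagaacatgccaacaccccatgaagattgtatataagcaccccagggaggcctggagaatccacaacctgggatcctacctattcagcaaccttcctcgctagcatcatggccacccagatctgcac
Both strands were searched, and no match overlapped another. CCAAT was present in both windows. In Krt84 it began at bases -154 and -56, and in Krt36 at base -196, counted from the start. Of 32851 promoter windows of 300 bases, 37.4% held it. In the Krt84 window TTTATA began at base -206, and 13.6% of all windows held it. The letters CTTTGA were in neither window and in 16.0% of all. These matches are descriptions of the letters.

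Krt84 was among the highest genes in tails and low in dorsal skin. In the 97 tails its lowest value was 12.78, its median 13.05 and its highest 13.27. In the 14 anagen dorsal arrays the values were 3.80, 5.59 and 9.21, and in the 85 non-anagen dorsal arrays 3.71, 4.79 and 6.32. No tail value overlapped a dorsal value, and the lowest tail lay 3.56 above the highest anagen array. Anagen and non-anagen values overlapped, with 6 of 14 anagen arrays above all 85 non-anagen arrays and 4 below the non-anagen median. The mean was 13.04 ± 0.08 in tail, 6.19 ± 1.87 in anagen dorsal skin and 4.87 ± 0.55 in non-anagen dorsal skin (SD, n = 97, 14 and 85).

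Krt36 followed the same order. Its lowest, median and highest values were 12.15, 12.52 and 12.78 in tails, 4.58, 5.43 and 8.26 in anagen dorsal skin, and 3.87, 4.83 and 5.70 in non-anagen dorsal skin. Again no tail value overlapped a dorsal value, with a gap of 3.90 between the lowest tail and the highest anagen array. Of the anagen arrays, 5 of 14 lay above all non-anagen arrays and 3 below the non-anagen median. The mean was 12.52 ± 0.11 in tail, 5.80 ± 1.16 in anagen dorsal skin and 4.85 ± 0.37 in non-anagen dorsal skin (SD, same n). Within the 82 mice with tail and non-anagen dorsal arrays, the tail value exceeded the dorsal value by 6.72 to 9.32 for Krt84 and by 6.97 to 8.60 for Krt36.

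**Figure D1:**
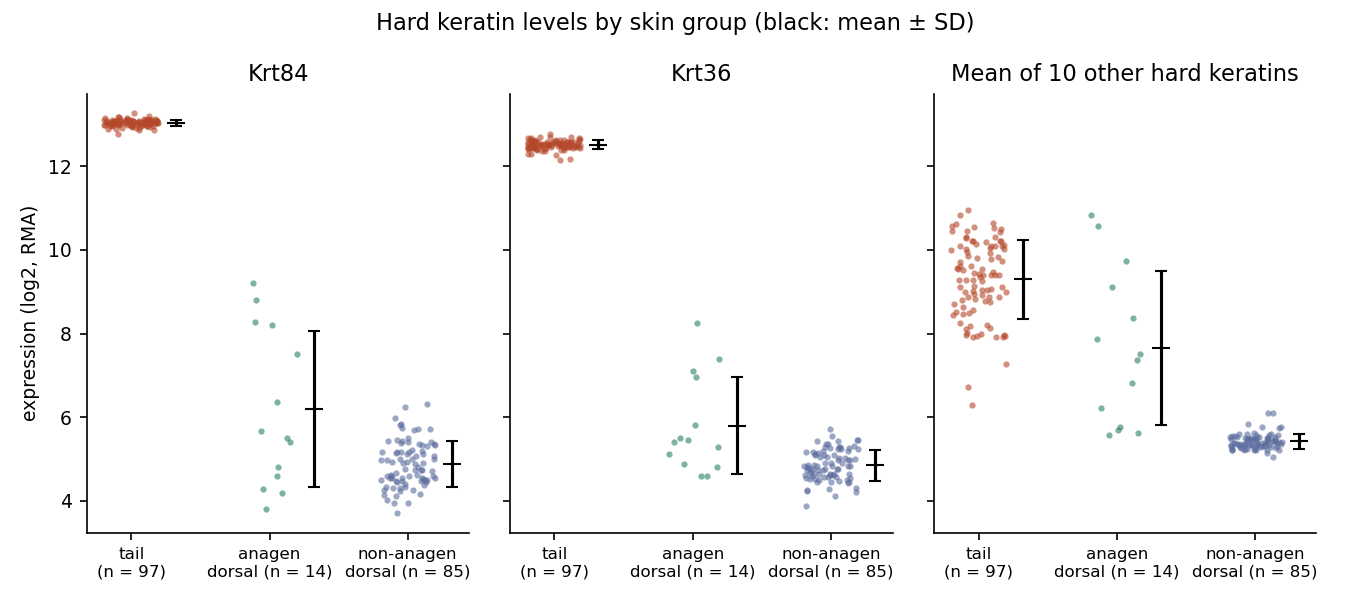
Expression (log2, vertical axis) of Krt84, Krt36 and the mean of the 10 other measured hard keratins in tail, anagen dorsal and non-anagen dorsal skin; each point is an array and the black mark is the mean ± SD. Krt84 and Krt36 form narrow bands in tail (SD 0.08 and 0.11), while the mean of the other hard keratins spreads from 6.30 to 10.97 there.

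The dorsal values of both genes lie where many genes lie. Only 27.7% of all genes had a lower mean than Krt84 in non-anagen dorsal skin, and 27.2% a lower mean than Krt36. The mean tail minus non-anagen difference was 8.17 for Krt84 and 7.67 for Krt36, and the part of array background in these values was not tested. The median difference over all genes was -0.0009, or -0.21 once every array was given one common median, which left 7.97 for Krt84 and 7.46 for Krt36.

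At the upper end, Krt84 ranked 4 and Krt36 ranked 22 of 18820 genes by tail mean. Their SDs across tails, 0.08 and 0.11, were small among all genes, whose median SD was 0.21, but genes of that level generally varied little. Among the 76 genes with a tail mean of 12 or more the median SD was 0.11, and among the 1822 genes between 9 and 10 it was 0.17. Of the 18 genes within 0.5 of the tail mean of Krt84, 3 had a smaller SD, and of the 69 genes within 0.5 of Krt36, 31 did. The highest value anywhere in the table was 13.83, and the part of the upper limit of the scale in the narrow spread was not tested.

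**Figure D2:**
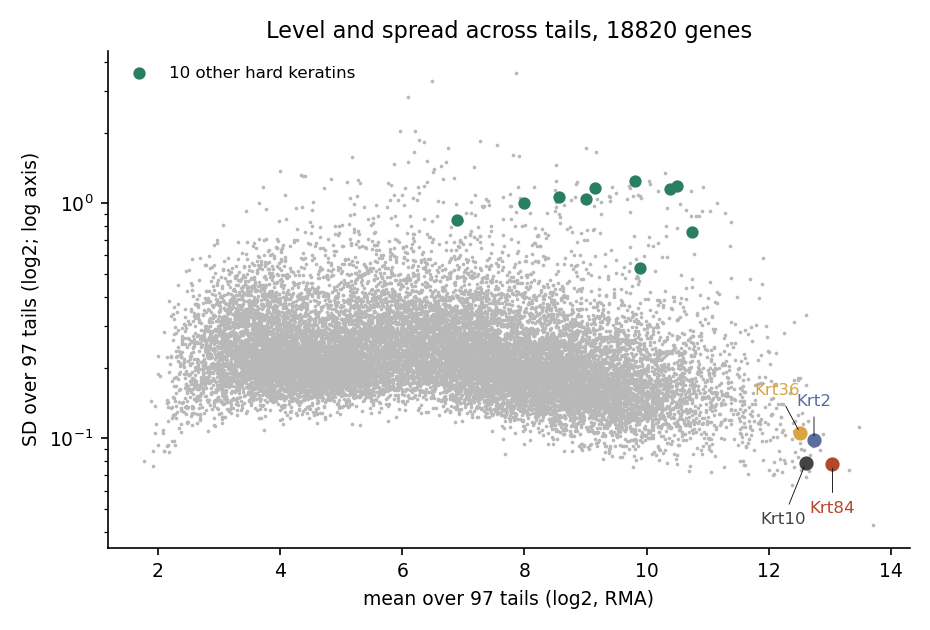
Mean over the 97 tails (log2, horizontal axis) and SD over the 97 tails (log2 units on a log axis) for 18820 genes in grey, with the 10 other hard keratins in green. Krt84 and Krt36 lie at the high-level, low-spread end beside the epidermal keratins Krt2 and Krt10, and the 10 other hard keratins lie at SDs of 0.53 to 1.25.

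Of 16 listed hard keratins 12 were measured, and the 10 that are not the genes described here were lower and more variable in tails. Their tail means lay between 6.90 (Krt32) and 10.74 (Krt33b), and their tail SDs between 0.53 (Krt39) and 1.25 (Krt86). All 10 were called higher in tail than in non-anagen dorsal skin at an adjusted p under 0.05 and a difference of at least 1 (3.94% of all genes were), by 1.47 (Krt32) to 5.43 (Krt33a) with a median of 3.68. Against anagen dorsal skin 9 of 10 were called higher (3.33% of all genes), by a median of 1.60, and Krt32, at 0.71, fell short of a difference of 1. That fit used a single spread for tail, anagen and non-anagen arrays. For Krt86 the SD was 1.25, 2.69 and 0.49 in these groups, and for Krt33a 1.19, 2.40 and 0.48. With the widest spread in the 14 anagen arrays, the p-values against anagen skin are likely too small. Krt39, a type I keratin, had the largest of these 10 differences against anagen skin, 3.23. For Krt84 and Krt36 the differences against anagen skin were 6.87 and 6.73. Close relatives such as Krt33a and Krt33b may share probes, which was not tested.

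Krt84 and Krt36 hardly moved with the sheath level of a tail. The sheath level ranged from 5.69 to 10.10 across the 97 tails. In the tail with the lowest sheath level, Krt84 was 12.94 and Krt36 12.58, while Krt31 was 6.02 and Krt33a 5.51. In the tail with the highest, Krt84 was 12.97 and Krt36 12.44, while Krt31 was 11.96 and Krt33a 12.34. Krt31 and Krt33a, type I keratins of the hair cortex, were thus high in tails with a high sheath level and low in tails with a low one, and Krt84 and Krt36 were about equally high in both. The other 4 tails at the low end (sheath level 6.51 to 6.79) had Krt84 at 12.96 to 13.12 and Krt36 at 12.51 to 12.61.

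Slopes over all 97 tails, adjusted for sex and batch, showed the same. Per log2 unit of sheath level, Krt84 changed by -0.0018 (r = -0.021) and Krt36 by -0.028 (r = -0.243), given as descriptions because constancy in tail chose the genes. In 9 of the 10 other hard keratins the slope was between 0.77 (Krt33b) and 1.29 (Krt86), with r between 0.924 and 0.958. Krt39 was the tenth, with a slope of 0.14 and r of 0.249. The chromosomal neighbours Krt82 (r = 0.958) and Krt35 (r = 0.942) therefore moved with the sheath genes across tails where Krt84 and Krt36 did not. Some other genes high in tails, given below, did not follow the sheath level across tails either. Among genes within 0.5 of the same tail mean, the median r with the sheath level was -0.163 for Krt84 and -0.154 for Krt36.

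**Figure D3:**
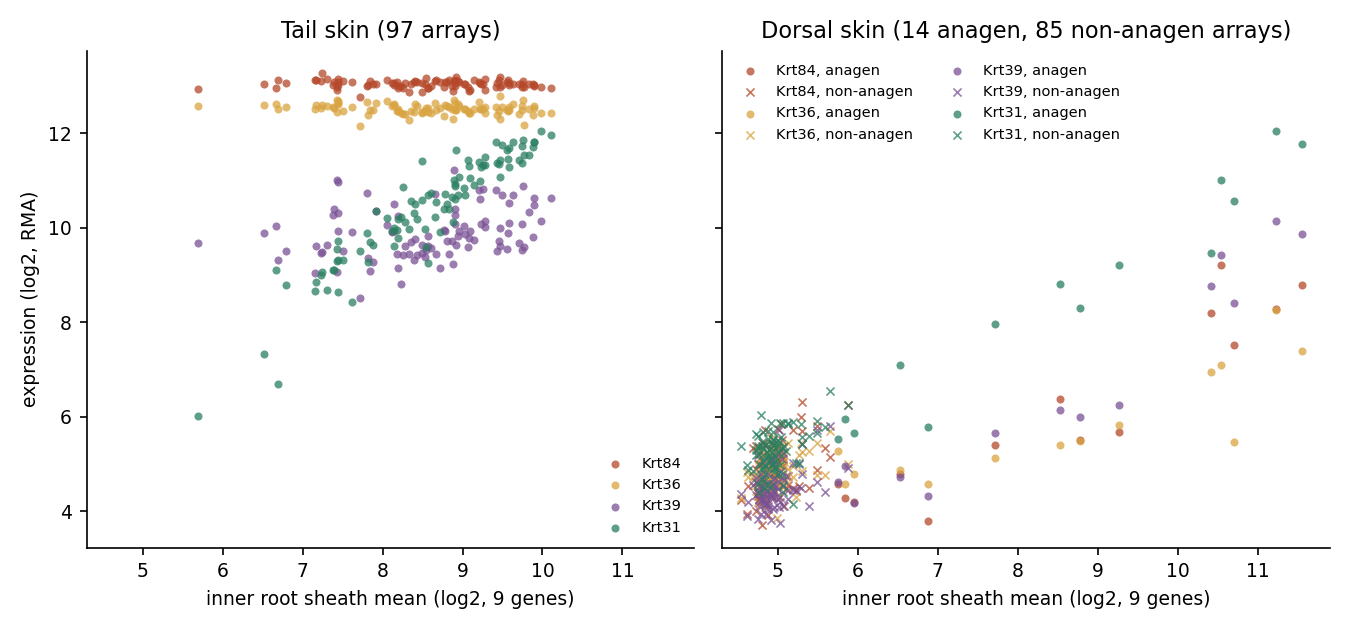
Expression (log2, vertical axis) against the sheath level (mean of 9 inner root sheath genes, log2, horizontal axis) for Krt84, Krt36, Krt39 and Krt31, in tails on the left and in anagen (circles) and non-anagen (crosses) dorsal arrays on the right. In tails Krt84 and Krt36 stay between 12.15 and 13.27 while Krt31 spans 6.02 to 12.04; in anagen dorsal skin all 4 genes are higher in arrays with a higher sheath level.

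In dorsal skin both genes were higher in anagen. Krt84 rose by 1.33 (95% interval 0.85 to 1.81, a fold of 2.51) in 14 anagen against 85 non-anagen arrays (limma adjusted p = 2.68e-05). Krt36 rose by 0.96 (0.65 to 1.26, a fold of 1.94; limma adjusted p = 2.29e-06). The fit uses a single spread for both groups. For Krt84 the SD was 1.87 in anagen and 0.55 in non-anagen arrays, and for Krt36 1.16 and 0.37. With the wider spread in the smaller group, the intervals are likely too narrow and the p-values too small. Of all 18820 genes, 4.11% passed the adjusted p of 0.05 as higher in anagen and 3.59% as lower. With a difference of at least 1 as well, 0.68% were higher and 0.00531% lower. Batch 1 held every anagen array, and in it alone the differences were 1.33 and 0.95, both called. Leaving out the 5 arrays that correlated least with the rest of their group, 3 of them anagen, the differences were 1.01 and 0.66, both still called.

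All 10 other hard keratins rose in anagen as well, by a median of 1.90 against a median of -0.018 over all genes. Krt33a rose by 4.04, Krt86 by 3.46, Krt31 by 3.28 and Krt39 by 2.15, while Krt32 rose by 0.78. All 9 sheath genes rose, by 0.82 (Krt74) to 4.98 (Krt71). Of 10 regulators of hard keratin genes 5 were called higher (4.11% of all genes were). They were Dlx3 (1.01), Hoxc13 (0.92), Msx2 (0.86), Foxn1 (0.50) and Lef1 (0.44), all transcription factors with a part in hair formation. Hoxc13 directly activates hair keratin genes, and loss of Foxn1 leaves mice without visible hair. Gata3, Vdr, Hr, Ovol1 and Hoxc12 did not pass the adjusted p of 0.05, with differences between -0.23 and 0.23. At an unadjusted p under 0.05 (limma), 7 of the 10 regulators passed, 6 of them higher. None of 6 skeletal muscle genes was called (limma, 0 at an unadjusted p under 0.05), with a median of 0.13, and none of 5 white adipocyte genes (2 at an unadjusted p under 0.05), with a median of 0.60. Of 5 keratinocyte genes 3 were called lower, namely Krt1 (-0.32), Lor (-0.30) and Krt10 (-0.20), and the part of these in the results was not tested.

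The anagen rise of both genes was smaller than that of the mean of the 10 other hard keratins in the same arrays, although Krt32 (0.78) rose less than either gene and Krt40 (1.30) was close to Krt84. The value of Krt84 minus the mean of the 10 others was -1.46 ± 0.63 in anagen dorsal skin and -0.55 ± 0.52 in non-anagen dorsal skin (SD, n = 14 and 85). The difference of -0.91 had p = 1e-05, the smallest that 100000 two-sided permutations can give. For Krt36 the values were -1.85 ± 0.92 and -0.57 ± 0.36, a difference of -1.28 (p = 1e-05 in the same permutation test). After adjustment over these 2 tests both stayed at 1e-05. These values spread more widely in the 14 anagen arrays, most of all for Krt36, so the permutation p-values are likely too small. The tests made no adjustment for sex or batch. The value lay below the non-anagen median in 12 of 14 anagen arrays for Krt84 and in 13 of 14 for Krt36.

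**Figure D4:**
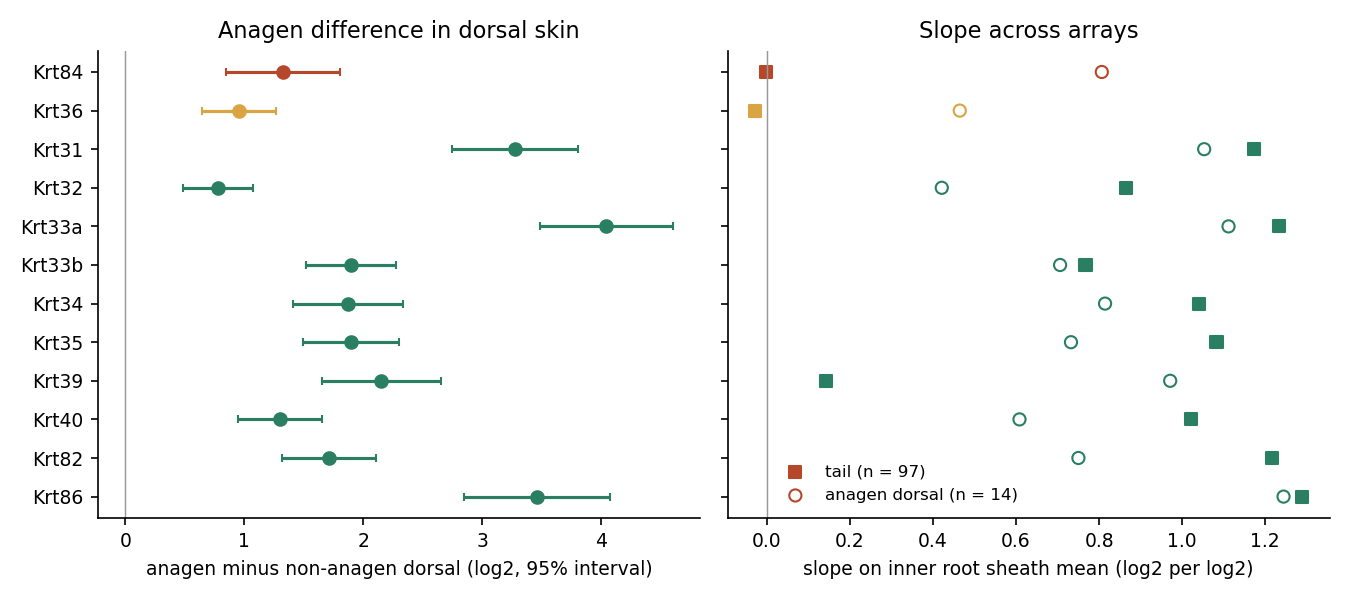
Left, difference between anagen and non-anagen dorsal skin (log2, with 95% interval) for 12 hard keratins; right, slope on the sheath level (log2 per log2) across 97 tails (squares) and 14 anagen dorsal arrays (circles). Krt84 and Krt36 have slopes of -0.0018 and -0.028 in tails and 0.81 and 0.46 in anagen dorsal skin.

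Within anagen dorsal skin both genes followed the sheath level. The 14 arrays spread from 5.75 to 11.55 in sheath level, with the widest gap, 1.16, between 9.26 and 10.42. Non-anagen dorsal arrays spread from 4.54 to 5.87, and 12 of the 14 anagen arrays lay above all of them. In the 3 arrays with the lowest sheath level Krt84 was 4.58, 4.28 and 4.19, and Krt36 was 5.28, 4.58 and 4.79. In the 3 arrays with the highest sheath level Krt84 was 7.52, 8.28 and 8.79, and Krt36 was 5.46, 8.26 and 7.40. The lowest 3 thus lay within the non-anagen range for both genes, and the highest 3 lay above it except for 1 Krt36 value.

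Across the 14 arrays, Pearson's r of Krt84 with the sheath level was 0.955 and Spearman's rho 0.943 (permutation p = 1e-05 each, adjusted 4e-05 each over 8 relations). For Krt36 r was 0.849 and rho 0.895 (permutation p = 0.0001 and 9e-05, adjusted 0.0002 and 0.00024). Without the 2 arrays farthest from the median sheath level, r was 0.940 and 0.855. In the 9 arrays below the widest gap r was 0.880 for Krt84 (exact permutation p = 0.00101) and 0.807 for Krt36 (exact permutation p = 0.00969). Krt36 and Krt84 also rose and fell together across the 14 arrays (r = 0.910, rho = 0.947, permutation p = 1e-05 each, adjusted 4e-05; r = 0.887 without the 2 farthest arrays). Per log2 unit of sheath level Krt84 changed by 0.81 and Krt36 by 0.46, within the range of 0.42 (Krt32) to 1.24 (Krt86) of the 10 others.

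High sheath levels in dorsal skin did not bring either gene to its tail level. The anagen median sheath level, 8.65, was near the tail median of 8.67, and 7 of 14 anagen arrays were at or above the tail median. In those 7 arrays Krt84 lay between 5.51 and 9.21 and Krt36 between 5.46 and 8.26, below every tail. Krt31 reached 12.04 in anagen dorsal skin, as high as the highest tail value of 12.04.

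In non-anagen dorsal skin, where both genes were near the low end, a weaker relation to the sheath level was present. For Krt84 r was 0.424 and rho 0.331 over 85 arrays (permutation p = 7e-05 and 0.00216, adjusted 0.000187 and 0.00346), and r was 0.365 without the 2 arrays farthest from the median. For Krt36 r was 0.336 and rho 0.344 (permutation p = 0.00132 and 0.00112, adjusted 0.00211 and 0.00224), and 0.386 without those 2. Within batch 1 r was 0.366 and 0.349 (n = 75; permutation p = 0.00129 and 0.00222), and within batch 2 it was 0.624 and 0.431 (n = 10; permutation p = 0.0541 and 0.211). The 3456 genes within 0.5 of the mean of Krt84 had a median r of 0.104 with the sheath level, and 0.781% of them a higher r than Krt84. For Krt36, 4.63% of 3477 such genes had a higher r. The relation between Krt36 and Krt84 in these arrays, r = 0.218 and rho = 0.146, did not pass (permutation p = 0.0444 and 0.182, adjusted 0.0508 and 0.204; r = 0.171 without the 2 farthest arrays).

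The tails of mice with anagen dorsal skin were also set beside those of mice with non-anagen dorsal skin. Since near constancy in tail chose both genes, their values here are descriptions with no test. Krt84 averaged 13.02 in 14 such tails and 13.05 in 82, a difference of -0.02. Krt36 averaged 12.49 and 12.52, a difference of -0.03. With limma 0 genes of 18820 were called in this comparison, 0% in either direction, and 796 had an unadjusted p under 0.05. The other 10 hard keratins lay between -0.78 and -0.15, with a median of -0.62, and none was called (limma), while 6 of them were lower at an unadjusted p under 0.05.

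The dorsal minus the tail anagen difference was 1.35 for Krt84 and 0.99 for Krt36. These values restate the dorsal difference, since the choice of genes that hardly vary in tail keeps the tail side near 0, and no test is given for them. All 10 other hard keratins were called larger in dorsal skin (limma interaction), with a median of 2.41, and of all genes 2.56% were called in that direction and 1.22% in the other. The interaction fit also used a single spread for all its groups.

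Sex differences of both genes were small. In tails, where the choice of genes again leaves only a description, Krt84 averaged 13.03 in 48 females and 13.05 in 49 males, a difference of -0.02. Krt36 averaged 12.53 and 12.50, a difference of 0.03. The 10 other hard keratins had differences of 0.23 to 0.52 in tails, and none was called (limma), while 8 had an unadjusted p under 0.05. All 5 white adipocyte genes were called higher in female tails, where 1.64% of all genes were called higher in females and 1.2% lower. In non-anagen dorsal skin neither gene was called, with differences of 0.09 for Krt84 (95% interval -0.14 to 0.32, limma adjusted p = 0.655) and 0.11 for Krt36 (-0.05 to 0.26, limma adjusted p = 0.406), where 6.19% of all genes were called higher in females and 6.11% lower.

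Correlations between the tail and dorsal level of a mouse are also descriptions with no test, since near constancy in tail chose both genes. Over 82 mice with non-anagen dorsal skin, Krt36 had r = 0.271 and rho = 0.256 between tissues. Without the 2 farthest mice r was 0.239, and in the 72 mice of batches 4 and 1 it was 0.295. It was 0.172 when every array was given one common median. Krt84 had r = -0.100 and rho = -0.142 (r = -0.114 without the 2 farthest mice and -0.116 in the 72 mice), but r = -0.234 with one common array median. That the relation differs between the genes was not tested.

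By r over the 97 tails among 9583 genes above the median gene mean, the 5 genes most like Krt84 were Krt10, a keratin of the upper epidermis (0.599), Krt36 (0.580), Serpinb5, a keratinocyte serpin (0.580), the ribosomal protein gene Rpl21 (0.552) and Pof1b (0.547). For Krt36 they were Krtap13 (0.610), a keratin-associated protein of the filament matrix, 2310034C09Rik (0.596), Krt84 (0.580), the retinol dehydrogenase Sdr16c5 (0.575) and 2310057N15Rik (0.571). Krt10, Serpinb5, Rpl21 and Pof1b differed by -0.41 to 0.05 between tail and non-anagen dorsal skin, whereas Krtap13, 2310034C09Rik and 2310057N15Rik were higher in tail by 7.84, 6.97 and 7.83. Krt84 and Krt36 had correlations of -0.143 and -0.373 with the median of the tail array, and the part of the array median in these likenesses was not tested.

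The same combination of a high tail level and a small spread was present in a few other genes. Of 67 genes at least 4 higher in tail than in non-anagen dorsal skin, whose median tail SD was 0.66, the 10 with the smallest SD began with Krt84, Krt2 (0.10), Krt36, Gm10229 (0.11) and Krt24 (0.12). They went on with Hoxd11, a posterior Hox gene (0.14), Wfdc17 (0.18), the cornified envelope gene Sprr2b (0.22), 2310079G19Rik (0.23) and Krtap13 (0.23). Krt2, a keratin of the upper epidermis, averaged 12.74 in tail, 4.91 in anagen dorsal skin and 5.15 in non-anagen dorsal skin. Its anagen difference was -0.24 (limma adjusted p = 0.216), beside 1.33 for Krt84 and 0.96 for Krt36, and that of Gm10229 was 3.85. A higher level in anagen was common in the wider set: 49 of the 67 genes were called higher (4.11% of all genes), and 3 of the 10. Across tails, 19 of the 67 had r above 0.9 with the sheath level. Krtap6-1, Krtap6-5 and Krtap6-2 rose in anagen by 4.47, 3.33 and 3.87, but across tails had r of -0.210, -0.010 and 0.008. A weak relation to the sheath level across tails was thus not particular to Krt84 and Krt36. The anagen and tail differences share the non-anagen arrays.

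**Figure D5:**
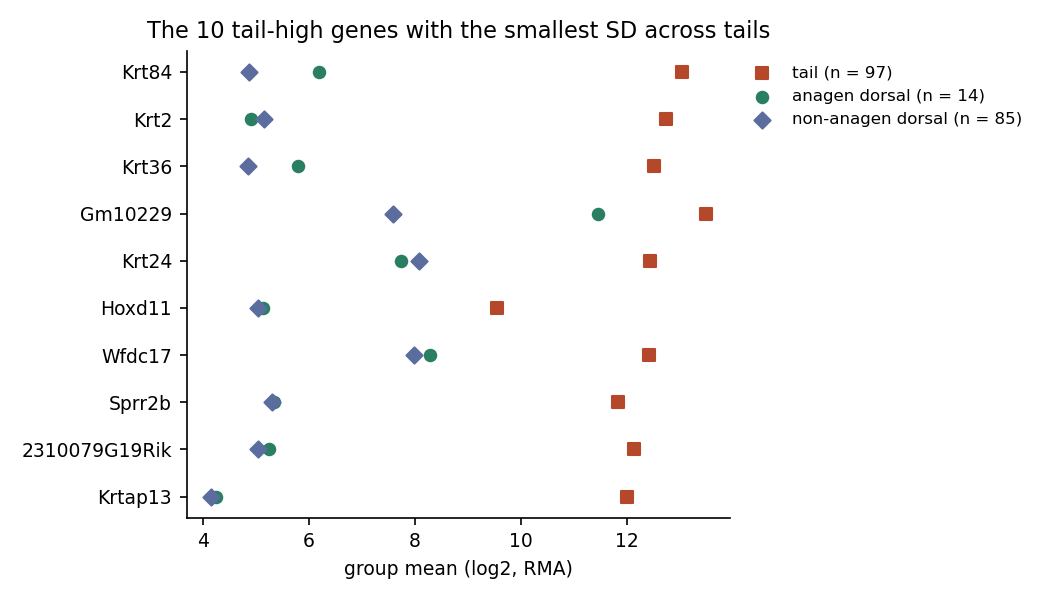
Group means (log2, horizontal axis) in tail, anagen dorsal and non-anagen dorsal skin for the 10 genes with the smallest SD across tails among those at least 4 higher in tail. Krt84, Krt36 and Gm10229 lie higher in anagen dorsal than in non-anagen dorsal skin, by 1.33, 0.96 and 3.85.

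Of 5 listed tail scale and interscale genes besides Krt36, 3 were called higher in tail than in non-anagen skin (3.94% of all genes). They were Krt2 (a difference of 7.59), Krt31 and Dlx1, while Krt10 was at -0.06. Dlx1, used in the mouse as a marker of the interscale, averaged 6.67 in tail and 5.10 in non-anagen dorsal skin (a difference of 1.57). Slc1a3, used as a marker of the scale, was at 7.07 and 6.97 (0.10, limma adjusted p = 0.0819). Krt31, another keratin used to mark tail scales, had r = 0.932 with the sheath level across these tails. Of the regulators, 6 of 10 were called higher in tail than in non-anagen dorsal skin (3.94% of all genes), with differences of 2.44 for Foxn1 and 2.36 for Hoxc13, while Gata3 was at -0.89. Against anagen dorsal skin 3 of 10 were called higher (3.33% of all genes), with Hoxc12 at 3.61, Foxn1 at 1.94, Hoxc13 at 1.42 and Gata3 at -0.67. Here too the fit used a single spread for all groups. Across tails Hoxc13 and Foxn1 had r of 0.384 and 0.380 with the sheath level, against 0.883 for Lef1 and 0.889 for Msx2.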

How the data were processed

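Per the submitters' processing notes, the deposited log2 values were made by the authors with RMA, a method that summarises the probes of a set. Its version is not given in these sources. Of 35556 probe sets 21218 named 1 gene, and the highest-mean probe set was kept for each of 18820 genes. No low-value filter was used and no array left out. For differences, limma 3.58.1 (lmFit and eBayes, R 4.3.3) was run with sex and batch within tissue, or sex alone between tissues, and adjusted by Benjamini-Hochberg over all genes, with calls at an adjusted p under 0.05. Of the limma fits, those of the dorsal anagen difference and of the interaction were tested on simulated data. The simulated spread of a gene was the same in anagen and non-anagen arrays, unlike that of the 2 genes here. The interaction simulation also gave all genes a common spread, and a gene the same mean in both tissues, with no pairing by mouse. In these respects too it was unlike the data. Correlations used values adjusted for sex and batch within each group and 100000 two-sided permutations, or all permutations for 9 arrays (Python 3.11.15, numpy 2.4.6, scipy 1.17.1). Promoters came from RefSeq. The number of arrays limits the precision.

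Genes named were the members, hard keratins, sheath genes, regulators, marker genes, the 5 genes most like each member across tails and the 10 tail-high genes of smallest tail SD. Members and lists were chosen with earlier results of these data known. The mouse number pairs tissues of the same animal: a mouse's tail and dorsal deviations had a median correlation of 0.166 over 82 mice, and with other mice it was -0.0007.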

Additional observations from a re-analysis of the deposited data

Results flagged for a closer look

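The dorsal minus the tail anagen difference was 1.35 for Krt84 and 0.99 for Krt36. It is listed because the contrast of mice with anagen against mice with non-anagen dorsal skin gave unequal differences in the 2 tissues, at 1.33 and 0.96 in dorsal skin and -0.02 and -0.03 in tail skin. Near constancy in tail chose both genes, so the tail side was small by that choice and the inequality is a description with no test. Tail arrays have no hair cycle label of their own and took that of the dorsal array from the same animal.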

How the results depend on the processing

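For 26 results on the 2 genes, 104 recomputations were made, and 100 kept direction and side of the threshold or, without a test, moved by less than the spread. Some of the recomputations could not move a value. Each gene has 1 probe set, so the mean of its probe sets is the same value. The gene filter and the eBayes trend setting left the difference itself unchanged and could alter only its p-value. The counts therefore overstate how far the results were tried. They also include the results that rest on tail values of the 2 genes, such as tail sex differences, tail slopes and the interaction. Near constancy in tail chose the genes, so the counts cannot be read as a test of those results. The anagen rise stayed called in 6 alternatives for each gene, at 1.01 to 1.33 for Krt84 and 0.66 to 0.96 for Krt36. Among these 6, the probe-set mean and the trend setting could not change the difference. All of these fits also used a single spread for anagen and non-anagen arrays. Shifting arrays to the same median changed 4 results, and the cause was not tested. The r between Krt36 and Krt84 in non-anagen dorsal skin became 0.261 (permutation, adjusted p = 0.0204). As descriptions, r between tail and dorsal skin became -0.234 for Krt84 and 0.172 for Krt36, and r of Krt84 with the sheath level across tails became -0.202. With mouse as a replicate block the interaction was 1.35 for Krt84 and 0.99 for Krt36, and 536 genes were called higher and 316 lower, against 481 and 230 without the block. Pairing within mice gave tail minus non-anagen differences of 8.18 and 7.67, which had no test, and the calls of other genes between tail and dorsal skin were not run with the block. Counts of called genes moved more than those of the members. In anagen dorsal skin 774 genes were higher and 676 lower, against 374 and 28 when the 5 arrays that correlated least with their group were left out, 493 higher with only genes above the median gene mean, which tests fewer genes, and 128 and 1 at a difference of at least 1. For the interaction 481 and 230 became 260 and 20 without those arrays, and the lower count became 435 with one array median and 391 after quantile normalization. For sex, 1165 higher in dorsal skin became 774 within batch 1, and in tail 309 higher became 151 above the median gene mean and 225 lower became 445 with one array median. The filter removed both genes from the 2 dorsal comparisons, so it gave no value there.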

Other observations

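Keratins of other hardened or lining epithelia did not share the tail level of Krt84 and Krt36 as a group. Krt24 averaged 12.43 ± 0.12 in tail, 7.73 ± 0.65 in anagen dorsal skin and 8.07 ± 0.69 in non-anagen dorsal skin (SD, n = 97, 14 and 85). Krt4 and Krt13, keratins of internal lining epithelia, and Krt76, a keratin of the palate, had tail means of 4.76, 4.59 and 4.39, against 4.72, 4.75 and 4.53 in non-anagen dorsal skin. Krt9, the keratin of footpad skin, averaged 4.35 in tail and 4.42 in non-anagen dorsal skin.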
